A study of Mus musculus with 7 samples.

Results

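Desmosomes are the spot-like junctions that tie the keratin filaments of neighbouring epithelial cells together, and 10 mouse genes of desmosomes and of the plakin family were followed here through the embryonic kidney and a collecting duct line. They are the desmosomal cadherin genes Dsg2 and Dsc2, the armadillo protein genes Jup, Pkp1, Pkp2, Pkp3 and Pkp4, and the plakin genes Dsp, Ppl and Evpl. Every probe set annotated to exactly 1 of these genes was taken, which gave 23 of the 45037 probe sets and 10 of the 18193 genes. Dsg2 had 6 probe sets, Pkp2 had 4, Dsp had 3, Dsc2, Pkp3 and Pkp4 had 2 each, and the other 4 genes had 1 each.

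In a desmosome, the cadherins reach across the gap between cells and bind armadillo proteins (plakoglobin and the plakophilins) at the membrane. Desmoplakin, a plakin, joins this plaque to intermediate filaments, which in simple epithelia are made of keratins. The ureteric bud, from which the collecting ducts form, is such an epithelium, whereas the metanephric mesenchyme that surrounds it is not.

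The study set epithelial against non-epithelial renal material on Affymetrix mouse expression arrays, with 1 ug of total RNA per labelling. The groups were an mIMCD-3 subclone grown to confluency in culture (1 array), and ureteric bud tip, ureteric bud stalk and metanephric mesenchyme microdissected from E12.5 embryonic kidneys (2 biological replicate arrays each). mIMCD-3 is a line derived from the mouse inner medullary collecting duct, and 1 subclone stands for it. Strain and genotype are not given in the labels, and the tissue arrays had been published before the array of the line was added, so line and batch cannot be told apart. Values are log2 of the deposited intensities, differences are in log2 units, and a ± after a difference is the standard error of the limma fit of the 6 tissue arrays. Each gene is represented by its brightest probe set on average over the 7 arrays, and was called where p, adjusted over all 45037 probe sets by the Benjamini-Hochberg method, was under 0.05.

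The dissections were checked on markers of their tissues. Of 10 ureteric bud epithelium markers, 9 were higher in tip than in mesenchyme and 8 were higher in stalk, and of 8 nephron progenitor markers 7 were lower in tip and 7 in stalk. Other cells were not shared evenly. The summed intensity of 8 renal stroma markers was 1851 to 2371 in tip, 17330 to 18180 in stalk and 15630 to 16540 in mesenchyme. For 8 endothelium markers it was 675 to 731 in tip, 1874 to 1929 in stalk and 2901 to 3217 in mesenchyme, and for 5 erythroid markers 9590 to 9866 in tip, 17730 to 18060 in stalk and 23640 to 24070 in mesenchyme. In mIMCD-3, 7 of the 10 bud markers were lower than in bud by more than 1 log2 unit. The endothelium and erythroid levels move with the tissue comparisons that follow. The stroma level moves with the comparisons of tip only. In stalk against mesenchyme, 1 of the 8 stroma markers was called higher and 1 lower. The part of these cells in the comparisons was not tested. In dissected tissue, fewer cells of a type and less RNA per cell cannot be told apart. The background values of these arrays have no zero, so absence of a gene cannot be shown.

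All 10 genes had group means in the order mIMCD-3, tip, stalk and mesenchyme from high to low, an order that 8.9% of all genes had. The steps in that order differed widely between genes, and many were within the spread between arrays. Against mesenchyme, 8 of the 10 genes were higher in tip (6.56% of all genes were called higher) and 4 were higher in stalk (3.74% of all genes). The member median was 1.05 for tip minus mesenchyme and 0.64 for stalk minus mesenchyme, beside medians of 0.01 and -0.04 over all genes. Limma called 0 lower in either comparison (7.56% of all genes in tip and 0.962% in stalk), and 0 were lower at an unadjusted p under 0.05. The tip arrays lay above the mesenchyme arrays without overlap for 9 genes (22.4% of all genes) and below them for 0 (22.6%), and the stalk arrays for 8 (22.3%) and 0 (25.6%). The tissue comparisons share arrays, so they are not independent of one another. With replicate number as a block in the fit, 8 were called higher in tip and 7 in stalk.

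**Figure D1:**
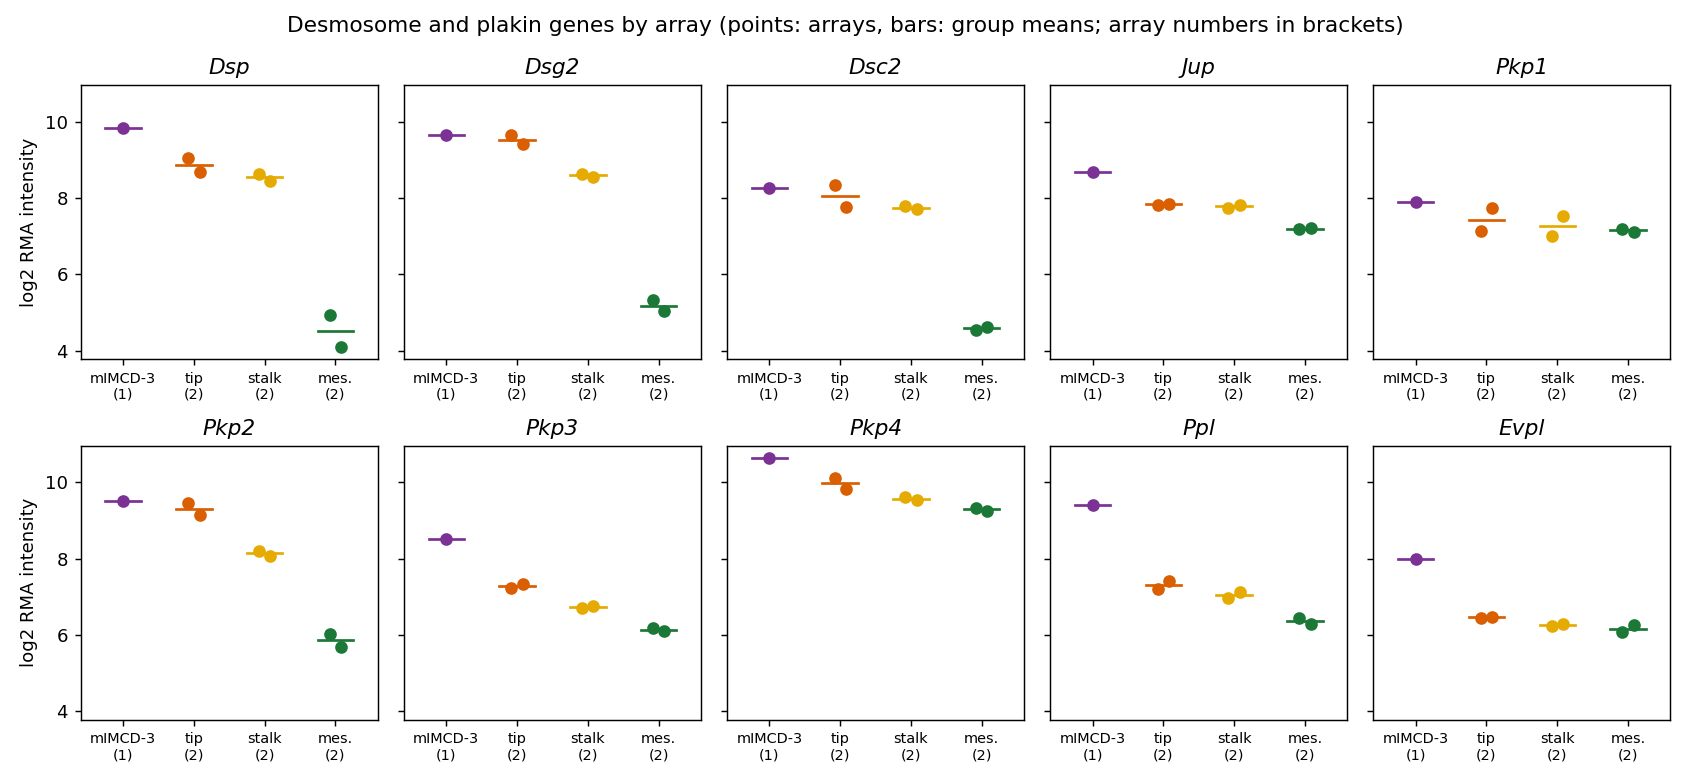
Log2 RMA intensity (vertical axis) of the 10 genes in each array, by group from left to right: mIMCD-3 (1 array), tip, stalk and mesenchyme (2 arrays each). Points are arrays and bars are group means. Dsp, Dsg2, Dsc2 and Pkp2 stand well above mesenchyme in all bud arrays, whereas Pkp4 is bright and Evpl and Pkp1 are nearly level across the tissues.

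Dsp encodes desmoplakin, the plakin that links the desmosomal plaque to keratin. Its log2 intensity was 9.06 and 8.68 in the tip arrays, 8.63 and 8.45 in the stalk arrays and 4.94 and 4.11 in the mesenchyme arrays. The bud arrays lay far above the mesenchyme arrays and did not overlap them. The mesenchyme values were near the lower quartile of the arrays (3.99 to 4.23). They are not shown to be above background, so no ratio is given for Dsp, or for Dsg2 and Dsc2, whose mesenchyme values were also under the median of the arrays (5.39 to 5.62). Dsp was 4.35 ± 0.27 higher in tip than in mesenchyme (adjusted p = 3.54e-05 by limma) and 4.02 ± 0.27 higher in stalk (adjusted p = 0.000183 by limma). Tip and stalk differed by 0.33 ± 0.27, which did not pass (95% interval -0.29 to 0.95; adjusted p = 0.579 by limma). A second Dsp probe set with closer mesenchyme values (4.29 and 4.22) was 3.98 ± 0.14 higher in tip and 3.68 ± 0.14 higher in stalk. The dimmest Dsp probe set was higher by 1.53 ± 0.13 in tip and 1.12 ± 0.13 in stalk, and all 3 passed the test against mesenchyme in both. The call of the dimmest one in stalk was lost without stalk replicate 2.

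Of the 10 members, Dsp, Jup and Pkp4 were matched in a table of RefSeq promoter windows (assembly GRCm38.p6). Pkp1, Pkp2, Pkp3, Ppl and Evpl were not matched. Windows on the chromosome of Dsg2 and Dsc2 were left out beforehand, so these genes were not looked up. Each window runs from 250 bases before to 50 bases after a transcript start. Dsp, Jup and Pkp4 are shown because they are the matched ones of those looked up. They set a gene with a large difference between bud and mesenchyme beside others with small differences. Capitals mark every match to CANNTG, the E-box, of which CAGGTG is the form bound by the Snail and Zeb repressors of epithelial genes. The windows are Dsp at chr13:38151044-38151343 on the plus strand, Jup at chr11:100397741-100398040 on the minus strand, and the second of 2 Pkp4 windows at chr2:59161619-59161918 on the plus strand.
Dsp: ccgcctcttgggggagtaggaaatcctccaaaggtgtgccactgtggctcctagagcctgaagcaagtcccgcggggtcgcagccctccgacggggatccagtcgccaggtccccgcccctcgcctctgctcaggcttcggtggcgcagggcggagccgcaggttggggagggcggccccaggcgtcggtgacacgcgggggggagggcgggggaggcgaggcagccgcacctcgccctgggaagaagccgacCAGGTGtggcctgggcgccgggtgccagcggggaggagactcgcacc
Jup: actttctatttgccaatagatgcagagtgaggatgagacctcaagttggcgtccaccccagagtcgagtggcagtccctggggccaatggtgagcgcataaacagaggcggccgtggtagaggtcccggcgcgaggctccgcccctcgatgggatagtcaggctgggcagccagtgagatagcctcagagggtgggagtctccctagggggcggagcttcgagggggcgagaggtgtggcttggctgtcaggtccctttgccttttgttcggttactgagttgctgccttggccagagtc
Pkp4: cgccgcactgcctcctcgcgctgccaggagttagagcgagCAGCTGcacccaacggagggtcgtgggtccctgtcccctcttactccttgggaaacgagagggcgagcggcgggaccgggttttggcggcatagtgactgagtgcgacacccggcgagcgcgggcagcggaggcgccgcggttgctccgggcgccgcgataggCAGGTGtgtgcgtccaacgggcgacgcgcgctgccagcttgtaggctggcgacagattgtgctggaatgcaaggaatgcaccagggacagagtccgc
The Dsp window holds 1 CAGGTG, which starts 3 bases after the start base, and no other E-box. The Jup window holds no E-box. The Pkp4 window shown holds 1 CAGGTG at position -47 from the start base and a further E-box, CAGCTG, at position -210, and the other Pkp4 window holds none. The grainyhead-type letters AACNNGTT, and AACCGGTT within them, were found in none of the 4 windows. Both strands were searched, and over all 32851 windows of 300 bases CAGGTG was present in 20.2%, CANNTG in 72.3%, AACNNGTT in 4.2% and AACCGGTT in 0.146%. The windows are rich in G and C (73% for Dsp, 60.7% for Jup and 68% for Pkp4, against a median of 52.7%), and a match to letters is a description only.

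Both desmosomal cadherin genes were higher in bud. Dsg2, which encodes desmoglein 2, the desmoglein of simple epithelia, had log2 intensities of 9.65 and 9.41 in tip, 8.64 and 8.56 in stalk and 5.32 and 5.04 in mesenchyme. The 3 groups did not overlap, with tip above stalk and stalk above mesenchyme. Dsg2 was 4.35 ± 0.16 higher in tip than in mesenchyme (adjusted p = 4.15e-06 by limma) and 3.42 ± 0.16 higher in stalk (adjusted p = 2.86e-05 by limma). All 6 Dsg2 probe sets were called higher in tip, by 0.95 to 4.35, and 4 of them in stalk. The 2 probe sets not called in stalk were the 2 dimmest, at 0.87 ± 0.25 and 0.53 ± 0.14, and the second of these was called with the replicate block. The probe set at 0.98 ± 0.16 in stalk lost its call without mesenchyme replicate 1 or either stalk array.

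Dsc2, the gene of desmocollin 2, which pairs with desmogleins across the junction, was measured at 8.34 and 7.76 in tip, 7.79 and 7.70 in stalk and 4.54 and 4.63 in mesenchyme. Tip and stalk overlapped, and both stood above mesenchyme. It was 3.47 ± 0.19 higher in tip than in mesenchyme (adjusted p = 2.37e-05 by limma) and 3.16 ± 0.19 higher in stalk (adjusted p = 0.000119 by limma). Its second probe set was higher by 2.23 ± 0.13 in tip and 1.86 ± 0.13 in stalk. Of 7 other desmosomal cadherin genes, which are known from stratified epithelia such as skin, 4 were measured (Dsg1a, Dsg1b, Dsc1 and Dsc3). Limma called 0 of the 4 in any of the 3 tissue comparisons, and 0 had an unadjusted p under 0.05. Dsc3 averaged 5.11 in tip, 5.05 in stalk and 4.98 in mesenchyme. Means over all arrays were 2.99 for Dsg1a, 2.65 for Dsg1b and 3.47 for Dsc1, under the lower quartile of every array, where a difference may not be measurable.

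Among the armadillo genes, Pkp2 differed most between bud and mesenchyme. Its product, plakophilin 2, is the plakophilin of simple epithelia and heart. The log2 intensity of Pkp2 was 9.45 and 9.15 in tip, 8.21 and 8.07 in stalk and 6.04 and 5.70 in mesenchyme, and the 3 groups did not overlap. It was 3.43 ± 0.17 higher in tip than in mesenchyme (a ratio of 10.8; adjusted p = 1.64e-05 by limma) and 2.27 ± 0.17 higher in stalk (a ratio of 4.83; adjusted p = 0.000351 by limma). The next Pkp2 probe set was higher by 3.20 ± 0.19 in tip and 1.88 ± 0.19 in stalk. The 2 dimmest Pkp2 probe sets were not called in either comparison, at 0.25 ± 0.21 and 0.53 ± 0.15 in tip and -0.10 ± 0.21 and 0.08 ± 0.15 in stalk. The second of these, at 0.53, was called in tip with the replicate block.

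The remaining armadillo genes had smaller differences. Pkp3, for a plakophilin that binds most of the desmosomal proteins, was at 7.24 and 7.35 in tip, 6.71 and 6.77 in stalk and 6.19 and 6.10 in mesenchyme. Its groups did not overlap, and it was 1.15 ± 0.13 higher in tip than in mesenchyme (adjusted p = 0.000801 by limma). In stalk its difference of 0.60 ± 0.13 did not pass (adjusted p = 0.0555 by limma), but did pass under the replicate block (adjusted p = 0.0165). The dimmer Pkp3 probe set, at 0.72 ± 0.19 in tip and 0.24 ± 0.19 in stalk, was called in neither, and with the replicate block or without tip replicate 2 it was called in tip.

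Jup encodes plakoglobin, a close relative of beta-catenin that sits in desmosomes and in adherens junctions. It read 7.83 and 7.86 in tip, 7.74 and 7.83 in stalk and 7.19 and 7.21 in mesenchyme. The bud arrays were above the mesenchyme arrays, and tip and stalk overlapped. Jup was 0.65 ± 0.13 higher in tip than in mesenchyme (adjusted p = 0.0138 by limma), a call lost without mesenchyme replicate 1 (adjusted p = 0.0961) or replicate 2 (adjusted p = 0.0816). Its stalk difference of 0.59 ± 0.13 did not pass (adjusted p = 0.0527 by limma), unlike with the replicate block (adjusted p = 0.0143). The beta-catenin gene Ctnnb1 averaged 13.14 in tip, 13.23 in stalk and 13.25 in mesenchyme and was not called, with a tip difference of -0.12 ± 0.13.

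Pkp4 encodes a protein of the p120-catenin group that is found at adherens junctions as well as desmosomes. It had 10.11 and 9.84 in tip, 9.63 and 9.53 in stalk and 9.34 and 9.25 in mesenchyme. Its groups did not overlap. Pkp4 was 0.68 ± 0.14 higher in tip than in mesenchyme (adjusted p = 0.0219 by limma), and its second probe set was 0.78 ± 0.14 higher (adjusted p = 0.0105 by limma). The call of the brighter Pkp4 probe set was lost with only tip and mesenchyme in the fit (adjusted p = 0.0568 by limma). Leaving out either stalk array repeats that fit. The call was also lost without mesenchyme replicate 1 (0.72), mesenchyme replicate 2 (0.63) or tip replicate 1 (0.54), but not without tip replicate 2 (0.81). That of the second was lost without either mesenchyme array (0.78 and 0.77). In stalk both Pkp4 probe sets were 0.28 ± 0.14 above mesenchyme and were not called (95% intervals -0.05 to 0.62 and -0.05 to 0.61).

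Pkp1, whose product plakophilin 1 is typical of stratified epithelia, was not called in any tissue comparison. It read 7.14 and 7.73 in tip, 7.01 and 7.52 in stalk and 7.18 and 7.12 in mesenchyme, and the 3 groups overlapped. In tip and in stalk the replicate 2 array was the higher one, by more than any of the 3 tissue groups differed from another. The tip difference from mesenchyme was 0.28 ± 0.23 (95% interval -0.26 to 0.83), and that of stalk was 0.12 ± 0.23 (95% interval -0.43 to 0.66).

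Ppl and Evpl encode periplakin and envoplakin, plakins of the desmosomal plaque and the cornified envelope of the skin. Ppl stood at 7.20 and 7.43 in tip, 6.97 and 7.14 in stalk and 6.45 and 6.30 in mesenchyme, without overlap between groups. It was 0.94 ± 0.15 higher in tip than in mesenchyme (adjusted p = 0.00475 by limma). The stalk difference of 0.68 ± 0.15 did not pass (adjusted p = 0.057 by limma), unlike with the replicate block (adjusted p = 0.0166). Evpl lay at 6.45 and 6.47 in tip, 6.25 and 6.30 in stalk and 6.07 and 6.26 in mesenchyme, so that the stalk and mesenchyme arrays overlapped. Evpl was not called in tip (0.30 ± 0.13; 95% interval -0.01 to 0.60) or in stalk (0.11 ± 0.13; 95% interval -0.20 to 0.42).

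Calls of the 10 genes rested in part on which arrays set the estimate of the spread. With only stalk and mesenchyme in the fit, 7 genes were called higher in stalk, Jup, Pkp3 and Ppl in addition to Dsp, Dsg2, Dsc2 and Pkp2. Leaving out either tip array repeats that fit, since a lone tip array adds nothing to the spread. Without mesenchyme replicate 1 or 2, Jup (0.64 and 0.65) and Pkp4 (0.72 and 0.63) lost their calls in tip. Among all 23 probe sets, 18 were called higher in tip than in mesenchyme and 11 in stalk (4.78% and 2.5% of all probe sets), and 0 were called lower (5.52% and 0.653% of all probe sets). The tip difference was above 0 for 23 of the 23 and the stalk difference for 22.

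**Figure D2:**
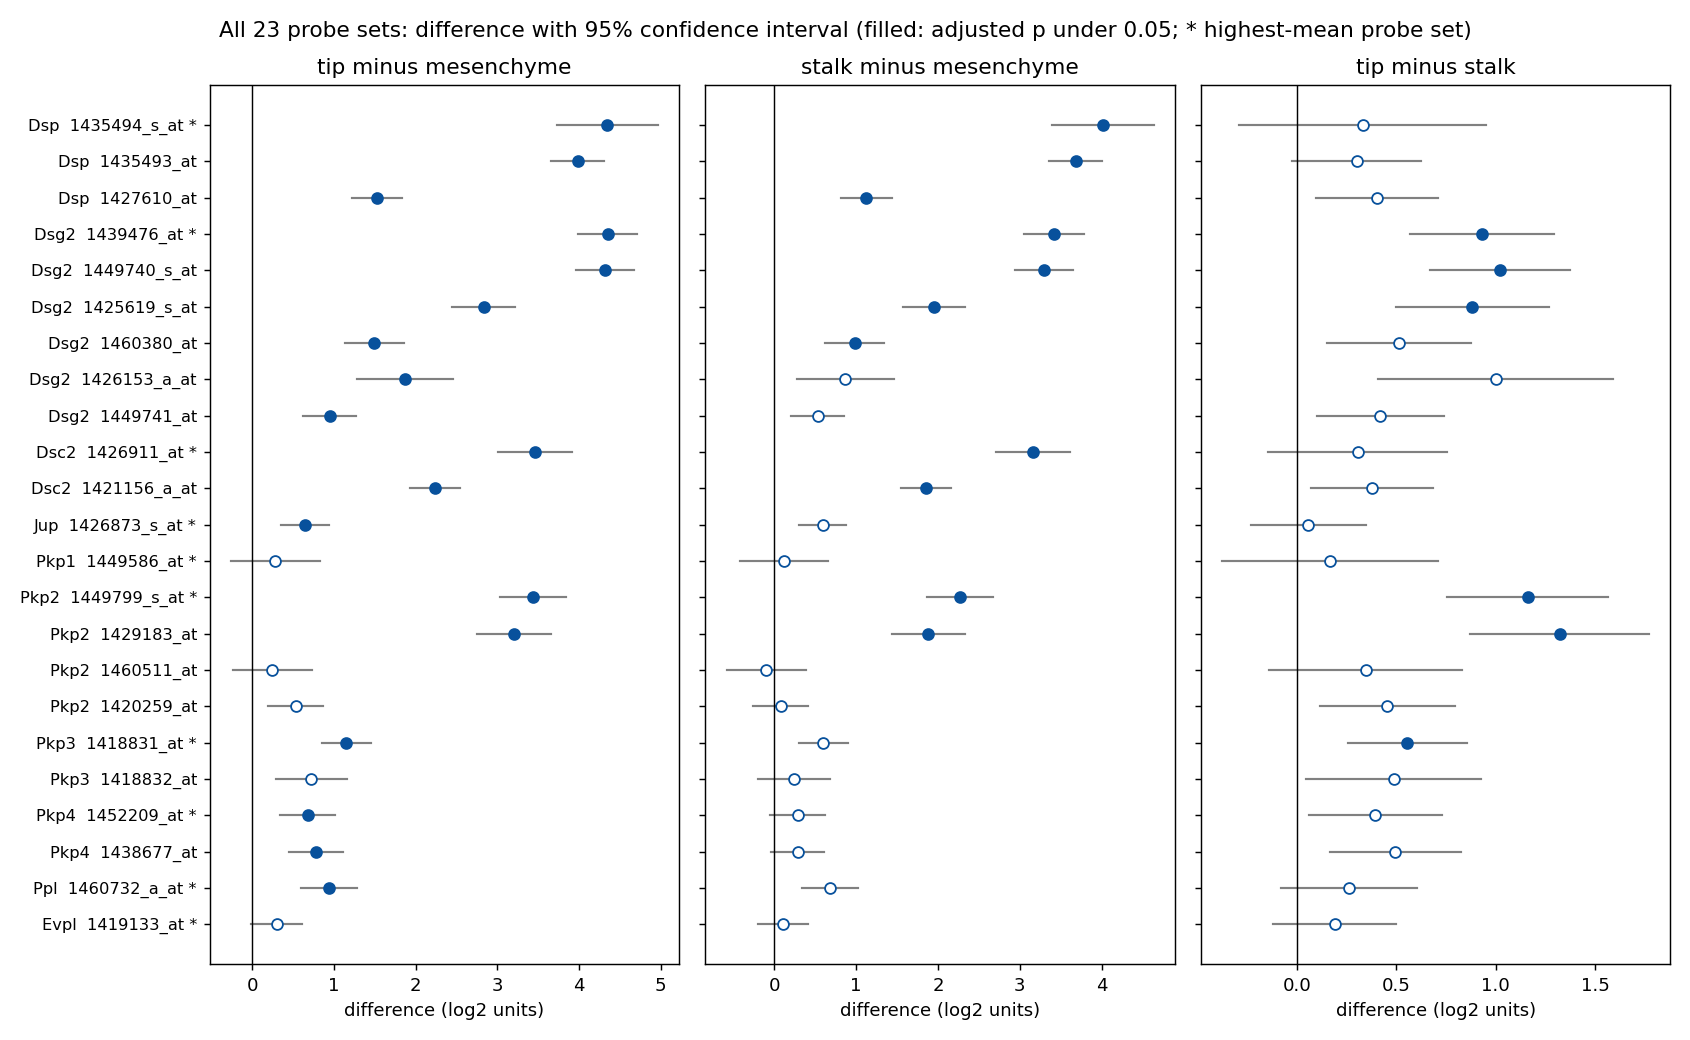
Difference in log2 units (horizontal axis) of the 23 probe sets, one per line, for tip minus mesenchyme, stalk minus mesenchyme and tip minus stalk. Points are differences of group means (2 arrays each), lines are 95% confidence intervals of the limma fit, filled points have an adjusted p under 0.05 and asterisks mark the probe set that represents a gene. Filled points number 18, 11 and 6 from left to right, and the 4 genes with large differences from mesenchyme are Dsp, Dsg2, Dsc2 and Pkp2.

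Probe sets of 1 gene differed in size of difference. For Dsp, Dsg2, Dsc2, Pkp2 and Pkp3 the brightest had the largest tip difference, and for Pkp4 the dimmer one did. For Dsg2, the tip difference was 4.35 at a mean of 8.04 over all 7 arrays and 0.95 at a mean of 4.28. For Pkp2 it was 3.43 at a mean of 8.02 and 0.53 at a mean of 3.67. For Dsp it was 4.35 at a mean of 7.67 and 1.53 at a mean of 5.22. Below the brightest probe set the order was not kept, since a Pkp2 probe set at a mean of 5.19 had 0.25, and Dsg2 probe sets at means of 6.01 and 4.37 had 1.49 and 1.87. Pkp4 had the highest mean of the 10 genes (9.76) and a tip difference of 0.68.

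**Figure D3:**
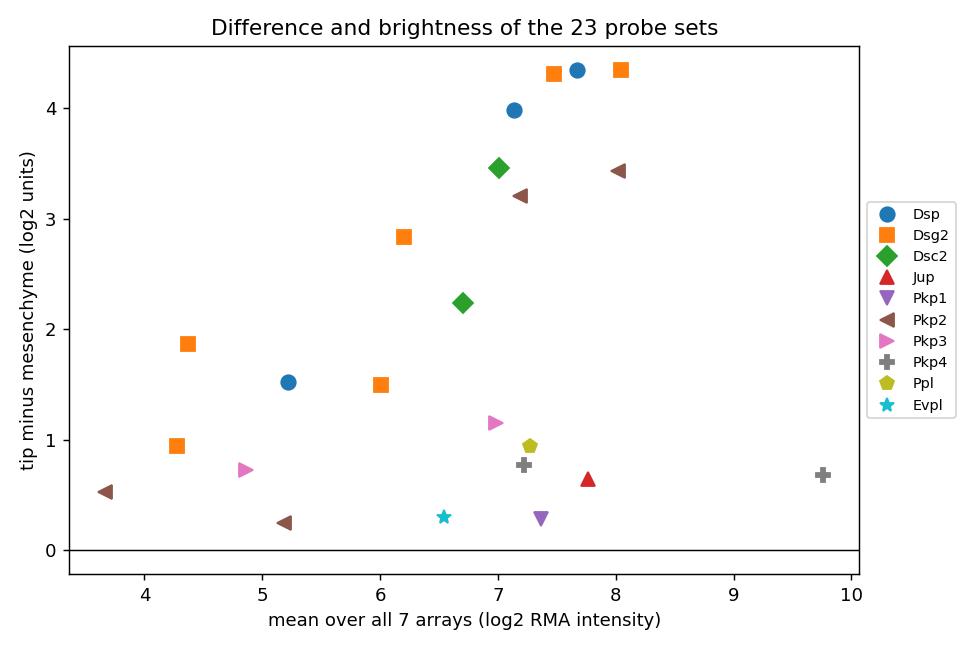
Tip minus mesenchyme in log2 units (vertical axis) against the mean over all 7 arrays in log2 RMA intensity (horizontal axis), 1 point per probe set, with a colour and symbol for each gene. Within Dsp, Dsg2, Dsc2 and Pkp2 the brightest probe set has the largest difference, whereas the bright Pkp4 probe sets stay under 1 log2 unit.

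The comparison of tip with stalk set the branching end of the bud against its trunk. Of the 10 genes, 3 were higher in tip, namely Dsg2, Pkp2 and Pkp3 (2.33% of all genes were called higher). Limma called 0 of them lower (6.31% of all genes), and 0 were lower at an unadjusted p under 0.05. The tip arrays lay above the stalk arrays for 7 genes (28.2% of all genes) and below them for 0 (22.6%). Among the 23 probe sets 6 were called higher and 0 lower, where 1.71% and 4.56% of all probe sets were. The member median was 0.32, beside 0.07 over all genes. Pkp2 was 1.16 ± 0.17 higher in tip than in stalk (adjusted p = 0.00659 by limma), and its second probe set was 1.32 ± 0.19 higher (adjusted p = 0.00596 by limma). Dsg2 was 0.93 ± 0.16 higher (adjusted p = 0.0113 by limma), and 3 of its 6 probe sets were called. Pkp3 was 0.55 ± 0.13 higher (adjusted p = 0.0466 by limma).

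The other 7 genes had tip minus stalk differences between 0.06 for Jup and 0.39 for Pkp4. Dsc2, with a difference of 0.30 ± 0.19 (95% interval -0.15 to 0.76), and Dsp did not pass, although both were higher than mesenchyme in tip and stalk. For the epithelial genes Cdh1, the E-cadherin gene, and Krt8, a simple keratin gene, the same difference was 0.56 ± 0.15 and 0.40 ± 0.12, neither of which passed, although both were called with the replicate block. Fewer of the calls of Dsg2, Pkp2 and Pkp3 were kept without either stalk array, and calls over all probe sets were fewer too. The differences themselves changed little. Without stalk replicate 1 or 2 they were 1.23 and 1.09 for Pkp2, 0.97 and 0.89 for Dsg2, and 0.53 and 0.58 for Pkp3. Their standard errors rose to 0.24, 0.23 and 0.20. Without tip replicate 2 the Pkp3 difference was 0.50 and was not called. Pkp3 was also lost with only tip and stalk in the fit (adjusted p = 0.0886 by limma), and leaving out either mesenchyme array repeats that fit. It was lost as well after median centring of the arrays (adjusted p = 0.0761) and under a trended, robust variance (adjusted p = 0.0806). In the last of these settings Pkp4 passed (adjusted p = 0.046). The stroma markers given above moved with this comparison, with 8 of 8 lower in tip than in stalk. So did the endothelium markers, with 8 of 8 lower. Of the 10 bud epithelium markers, 7 were higher in tip than in stalk and 0 lower, with a median of 1.07. The part of these markers in the comparison was not tested.

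In mIMCD-3 the desmosome and plakin genes stood above the bud. With 1 array there is no replicate check and no test, and a difference is described as past 1 log2 unit or not. The line was above the mean of stalk and tip by more than 1 log2 unit for 4 genes, Ppl, Evpl, Pkp3 and Dsp (9.75% of all genes), and below it by that much for 0 (9.33% of all genes). It was above all 6 tissue arrays for 9 of the 10 genes (30.7% of all genes), Dsc2 being the exception. For Dsg2 the margin was slight, at 9.66 in mIMCD-3 against 9.65 in tip replicate 1. Of the 23 probe sets, 20 were above all 6 tissue arrays, and 2 of the other 3 were of Dsg2. The member median was 0.86, beside -0.05 over all genes. Centring every array on its median would add 0.16 to each of these differences, and then Jup (1.02) and Pkp4 (1.03) also pass 1 log2 unit. Without any one bud array, 4 genes passed.

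The plakins Ppl and Evpl had the largest differences between the line and the bud when each gene is represented by its brightest probe set. By the second Pkp4 probe set (1.79), Pkp4 would stand above Evpl. Ppl read 9.42 in mIMCD-3, against bud means of 7.31 in tip and 7.05 in stalk, which is 2.24 above the bud (a ratio of 4.72). Evpl read 8.01 in mIMCD-3, against 6.46 in tip and 6.27 in stalk, 1.64 above the bud (a ratio of 3.11). Pkp3 read 8.51 in mIMCD-3, against 7.29 in tip and 6.74 in stalk, 1.49 above the bud.

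Dsp read 9.84 in mIMCD-3, against 8.87 in tip and 8.54 in stalk, and was 1.14 above the bud. Its other 2 probe sets were 0.96 and 0.95 above the bud, just short of 1 log2 unit. For Pkp4 the representative probe set read 10.64 in mIMCD-3, against 9.97 in tip and 9.58 in stalk, and was 0.86 above the bud, whereas the second probe set was 1.79 above. The cadherin genes were close to the tip level. Dsg2 read 9.66 in mIMCD-3, against 9.53 in tip and 8.60 in stalk, and Dsc2 read 8.27 in mIMCD-3, against 8.05 in tip and 7.75 in stalk. Likewise Pkp2 read 9.52 in mIMCD-3, against 9.30 in tip and 8.14 in stalk. Jup was 0.86 and Pkp1 0.54 above the bud.

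**Figure D4:**
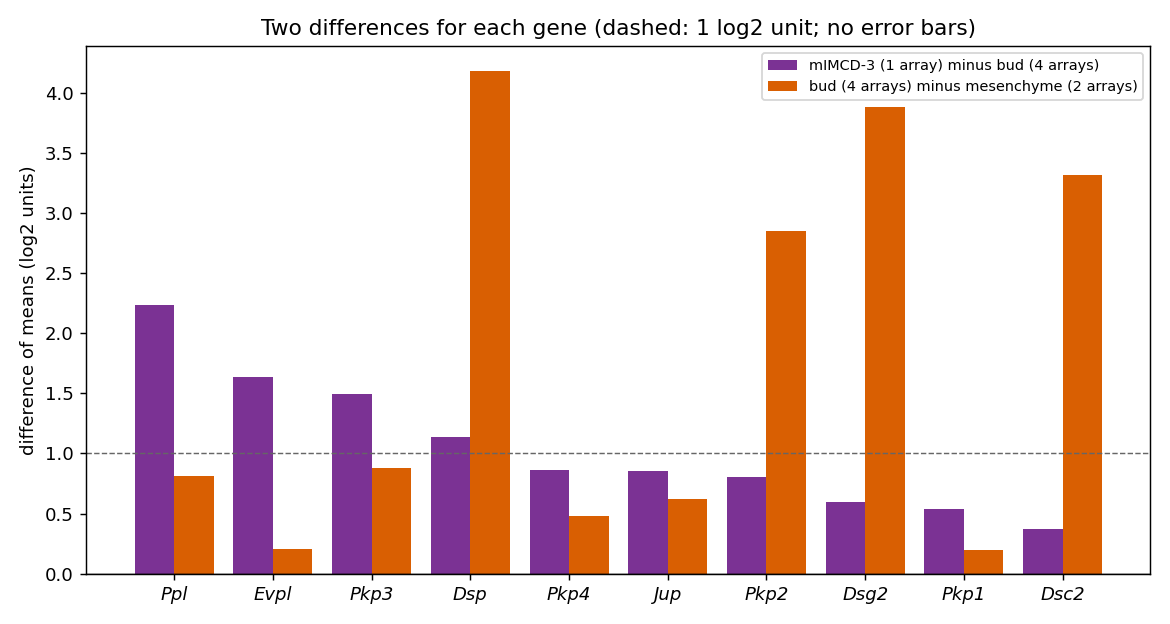
Difference of means in log2 units (vertical axis) for each gene, with mIMCD-3 (1 array) minus bud (mean of the tip and stalk means, 4 arrays) in purple and bud minus mesenchyme (2 arrays) in orange, without error bars. Ppl (2.24) and Evpl (1.64) lead the first set, and Dsp (4.18), Dsg2 (3.88), Dsc2 (3.31) and Pkp2 (2.85) lead the second.

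Related genes gave further contrasts. Among 4 other plakins and spectraplakins, large linkers between filaments and junctions, Eppk1 was higher in tip than in mesenchyme (1.07 ± 0.15; adjusted p = 0.00284 by limma) and Dst, whose products serve hemidesmosomes and the cytoskeleton, was lower (-1.40 ± 0.17; adjusted p = 0.00109 by limma). Plec, the plectin gene, was higher in stalk (0.74 ± 0.15; adjusted p = 0.039 by limma), a call lost without any one of the 2 stalk and 2 mesenchyme arrays. With the replicate block Plec and Eppk1 were called higher in both tip and stalk. Macf1 was called in no comparison, at 0.27 ± 0.15 in tip. In mIMCD-3, Plec, Dst and Eppk1 were 1.62, 1.59 and 1.42 above the bud.

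Of 11 further genes tied to desmosomes, 5 were higher in tip than in mesenchyme and 2 were lower. Higher were Krt8 (5.52), Krt18 (5.39), Krt7 (4.24) and Krt19 (1.56), keratins of simple epithelia, and Perp (1.09 ± 0.26; adjusted p = 0.0331 by limma), whose product is a membrane protein of desmosomes. Perp was not called without mesenchyme replicate 2, without tip replicate 1 or on the scale of log2 of the value plus 32. Its mesenchyme mean of 3.75 was under the lower quartile of every array and is not shown to be above background. Lower were the non-keratin filament genes Vim (-2.04) and Des (-1.71). In stalk their differences from mesenchyme were -0.03 and -1.09, and Vim was not called. The keratins of stratified epithelia Krt5 and Krt14 were not called in tip, at 0.12 and 0.10. In mIMCD-3, Perp read 9.15, against 4.84 in tip and 4.50 in stalk, 4.47 above the bud, and Krt19 was 4.89 above. Vim read 4.47 in mIMCD-3, against 10.30 in tip and 12.31 in stalk.

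Of 16 adherens junction and p120 family genes, 7 were higher in tip than in mesenchyme and 2 lower, with a median of 0.30. Cdh1 was 7.19 ± 0.15 higher, Cdh16 5.16 ± 0.14 and Cdh3 2.94 ± 0.17. The Cdh1 mesenchyme mean of 3.84 was under the lower quartile of every array and is not shown to be above background. Of the p120-catenin relatives of Pkp4, Ctnnd2 at 3.69 ± 0.22 and Arvcf at 1.07 ± 0.16 were called. Ctnnd1 at 0.17 ± 0.14 was not. Cdh2 and Cdh11, cadherins of mesenchymal cells, were lower in tip by limma at -3.51 and -3.31. In stalk their differences from mesenchyme were -1.27 and -0.29, and Cdh11 was not called. The mIMCD-3 array was above the bud by more than 1 log2 unit for 2 of the 16 genes (9.75% of all genes). It was below by that much for 4 (9.33% of all genes), and the median was -0.28. Of 6 measured hemidesmosome genes, Itga6 (1.28 ± 0.17) and Cd151 (0.66 ± 0.13) were higher in tip, and Cd151 was lost without either mesenchyme array. The hemidesmosome genes Itgb4 and Lamb3 were not called in tip, at 0.10 and 0.17, and were 3.10 and 3.41 above the bud in mIMCD-3. Lama3 was 1.60 above it, and Itga6 differed the other way, at -1.44.

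Envoplakin and periplakin are also part of the cornified envelope of the skin. Of 11 of its other genes, limma called 0 higher and 1 lower in tip than in mesenchyme. At an unadjusted p under 0.05 they were 2 and 1, and under the replicate block 1 (Scel) and 1. The gene called lower was the transglutaminase gene Tgm5 (-0.71 ± 0.18; adjusted p = 0.0428 by limma). Tgm5 was not called without mesenchyme replicate 2 or tip replicate 1, or on the scale of log2 of the value plus 32. Nor was it called with only tip and mesenchyme in the fit, and leaving out either stalk array repeats that fit. In mIMCD-3, Scel, the gene of the envelope precursor sciellin, read 11.18, against 4.58 in tip and 4.36 in stalk, and was 6.70 above the bud. Cstb, a protease inhibitor gene, was 1.64 above, and Tgm5 differed the other way, at -1.35. These were the only 3 of the 11 past 1 log2 unit, and the median of the 11 was 0.09.

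Other genes were ranked by likeness of pattern to each member, as the root mean square difference of log2 values centred over the 7 arrays. Dsp was nearest to the potassium channel gene Kcnk1 (0.32), to Pkhd1 (0.33), a gene of recessive polycystic kidney disease, and to Dsg2 (0.38). Dsg2 was nearest to Kcnk1 (0.15), to the epithelial transcription factor gene Grhl2 (0.20) and to Pkhd1 (0.26). For Dsc2 the next genes were Rab20 (0.16) and Manba (0.20), behind 2610528J11Rik (0.12). Pkp2 was nearest to the Wnt receptor gene Fzd6 (0.17), and to Arhgef16 (0.19) and Rgl3 (0.20). Ppl was nearest to Aff1 (0.17), Iqgap3 (0.17) and Veph1 (0.19), and Pkp3 to Zbtb18 (0.070), Gltp (0.12) and Epha2 (0.13). For the other 4 genes the nearest were Bcar1 for Jup (0.084), Rexo2 for Pkp4 (0.043), Atn1 for Evpl (0.048) and Tmem38b for Pkp1 (0.059). The measure is smaller for genes that vary little, so its values cannot be compared between members. Dsp ranged over 5.74 log2 units across the arrays, Pkp4 over 1.39 and Pkp1 over 0.87. All points share the same arrays, so these values describe likeness only.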

How the data were processed

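Labelled RNA was hybridised to 7 Affymetrix mouse arrays. Per the series' design text and the submitters' processing notes, the authors recalculated robust multichip analysis (RMA) over all arrays, which corrects background, normalizes between arrays and summarises probe sets; its software is not given in the sources used here. What was deposited is linear intensity per probe set, which was converted to log2 here. Of 45101 probe sets, 64 controls were left out, and no other filter was applied. Gene symbols come from the platform annotation, where 34945 probe sets list 1 gene, 932 several and 9160 none, and names were updated through the RefSeq table of assembly GRCm38.p6 (99.4% of those with 1 gene were found there).

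The 6 tissue arrays were fitted in limma 3.58.1 (R 4.3.3) with a coefficient per group, 3 residual degrees of freedom, two-sided tests and Benjamini-Hochberg adjustment over all probe sets. mIMCD-3 stayed outside the fit. Precision is limited by the number of arrays. The gap between replicates 1 and 2 correlated between groups, over probe sets, at 0.39 (stalk and mesenchyme), 0.57 (tip and mesenchyme) and 0.43 (tip and stalk). The labels state no pairing, but all exceeded 0.1, and a second fit added replicate number as a block. Further alternatives were trend and robust variance, leaving out the dimmest 40% of probe sets, 1 probe set per gene, centring on array medians, log2 of the value plus 32, another representative probe set, the compared groups alone, and leaving out each array. The members and all gene lists were chosen with earlier results of these data known. All 10 members are named, with every probe set. Of the other lists, short ones may be named in full and longer ones by their 6 largest differences plus Cdh1, Cdh2, Ctnnb1 and Ctnnd1. Arvcf was named besides, as a p120-catenin relative of Pkp4. For likeness, the 3 nearest genes were taken. Figures were drawn with matplotlib 3.10.9.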

Additional observations from a re-analysis of the deposited data

How the results depend on the processing

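With the replicate number as a block, which fits a shared shift for arrays of the same number, 1932 probe sets were called higher and 776 lower in stalk against mesenchyme (1128 and 294 without it), 3480 and 3983 in tip against mesenchyme (2154 and 2487 without it), and 2421 and 3554 in tip against stalk (772 and 2054 without it). The block moved the number of the 10 genes called higher in stalk to 7, against 4 without it, and changed neither of the other counts of the 10 genes. That count was also 7 without the dimmest 40% of probe sets, with 1 probe set per gene and with only the 2 groups compared. Leaving out either tip array repeats the last of these fits. With trend and robust variance, 501 probe sets were lower in stalk than in mesenchyme and 1374 higher in tip than in stalk. With 1 probe set per gene, which tests fewer features, 1342 were higher and 1523 lower in tip than in mesenchyme, and 1268 were lower in tip than in stalk. At 2 log2 units, 1 of the 10 genes (Ppl) was above the bud in mIMCD-3.

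Leaving out 1 array gave 557 to 1401 probe sets higher and 93 to 434 lower in stalk against mesenchyme, 1368 to 2446 higher and 1452 to 3224 lower in tip against mesenchyme, and 224 to 1117 higher and 1005 to 2905 lower in tip against stalk. Of the 10 genes, 4 to 7 were higher in stalk and 6 to 8 in tip against mesenchyme, and 0 to 3 in tip against stalk. A contrast with a group of 1 array assumes that this array varies like the other groups. Sign changes were seen only in probe sets that were not called, namely Pkp1 and the 2 dimmest of Pkp2. Pkp1 ranged from -0.14 (without stalk replicate 2) to 0.37 in stalk against mesenchyme, from -0.0147 (without tip replicate 2) to 0.58 in tip against mesenchyme, and from -0.13 (without tip replicate 2; -0.0863 without stalk replicate 1) to 0.46 in tip against stalk. Pkp2 probe sets ranged from -0.43 to 0.23 and from -0.0482 to 0.20 in stalk against mesenchyme, with the sign change without mesenchyme replicate 2, and from -0.0846 (without mesenchyme replicate 1) to 0.58 in tip against mesenchyme. Of 846 recomputed differences, 772 kept their direction and side of the threshold, 29 lost a call, 38 gained one and 7 changed sign, and the causes were not tested.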
